A study of Mesocricetus auratus with 9 samples.

Results

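Described here are genes whose liver transcript level stood apart in late torpor from both other stages of the Syrian hamster (Mesocricetus auratus). The 2 other stages were not required to be alike, so a member could also stand apart in 1 of them. Levels are given as CPM, the count of a gene divided by the total count of its library and multiplied by 1000000. Genes were chosen by their measured levels: a mean of at least 1 CPM over the 9 libraries, all 3 torpor late libraries above (or all below) the other 6, and a torpor late mean at least 1.4-fold away from the mean of both other stages. Of 17090 genes in the table, 11077 had a mean of at least 1 CPM, and 85 of these met the rule. There were 48 genes high in torpor late, 0.433% of the 11077, and 37 genes low in torpor late, 0.334% of the 11077. Because the rule used these levels, the height of the genes in torpor late is given as a description. Test calls for the contrasts that the rule used are printed near the end for orientation and carry no reading for the members.

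The series holds 1 liver library of polyadenylated RNA from each of 9 animals, 3 per stage. Summer euthermic animals were outside hibernation and had a mouth temperature of 35.7 ± 0.5 °C when killed. Torpor late animals were hibernating in darkness and had a mouth temperature of 9.0 ± 0.9 °C. Arousal early animals were also hibernating in darkness, had been roused by handling once torpor had lasted over 3 days, and had a mouth temperature of 35.0 ± 2.1 °C. The labels do not say what the spread of these temperatures is, and name no strain, sex, age or batch. Library totals lay between 29675688 and 47565345 counts, with the lowest in torpor late replicate 1, and no pair of libraries held identical counts.

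Hibernators alternate between bouts of torpor, in which body temperature and metabolic rate are low, and short arousals in which they rewarm. Transcription and translation slow down in the cold, so that transcript levels late in a bout also depend on which messages are degraded and which persist. The liver supplies glucose and ketone bodies to other organs through this cycle and makes most plasma proteins. The table identifies genes by Ensembl identifier only, and a symbol was found for 0 of the 17090, so no function is given for any gene below and the liver label was not checked against marker genes. The counts come from whole tissue, in which fewer cells of a type and less RNA per cell cannot be told apart.

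**Figure D1:**
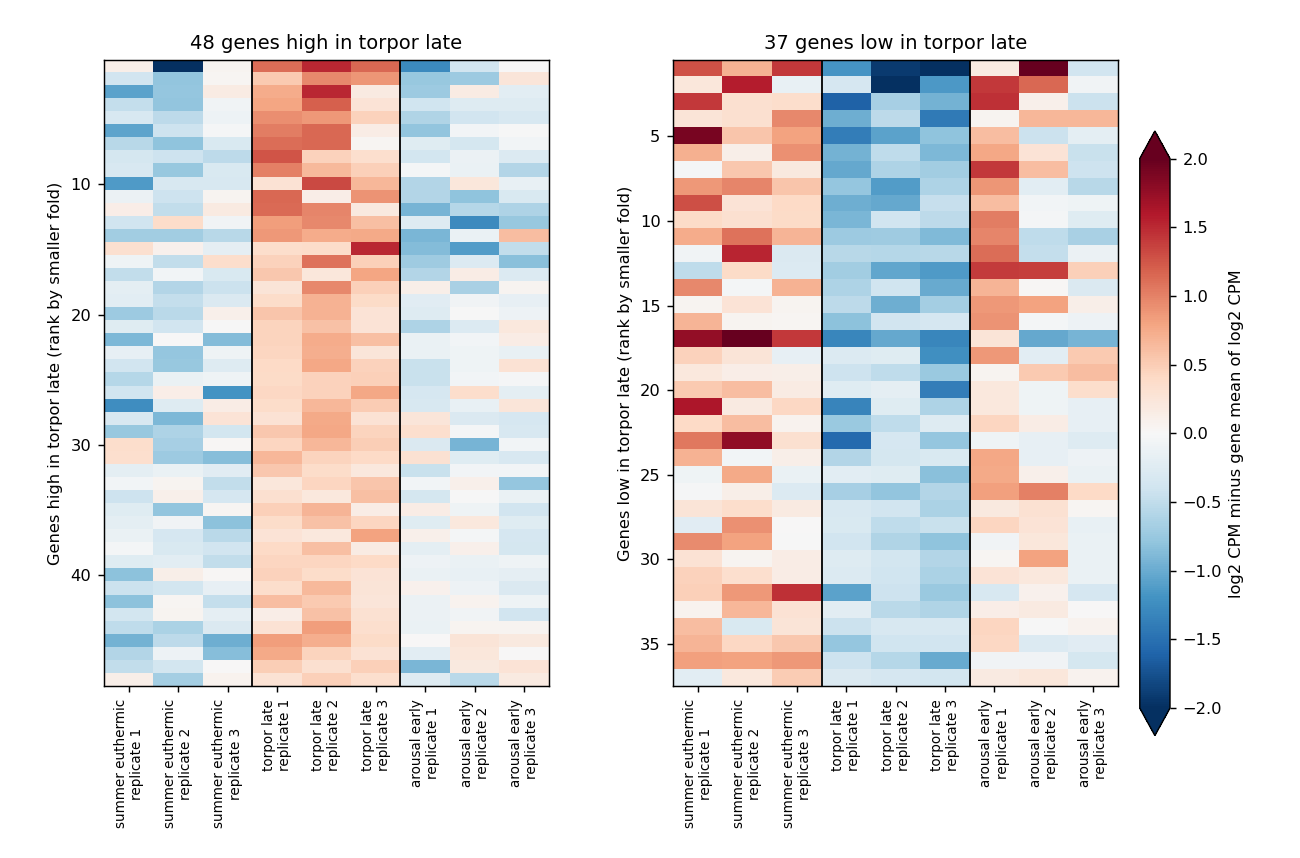
Levels of the 48 genes high (left) and the 37 genes low (right) in torpor late, one row per gene ranked by the smaller of its 2 fold differences and one column per library, coloured by log2 CPM minus the mean log2 CPM of the gene. The 3 middle columns of each panel are the torpor late libraries that chose the genes. In the right panel, arousal early replicate 3 is paler than arousal early replicate 1, with a median level 1.35 times the torpor late mean compared with 2.27 times.

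Genes are named in the order of the smaller of their 2 fold differences, among members that reached 5 CPM in their highest stage. The first high gene in this order was ENSMAUG00000013255. In torpor late it was at 29.1, 38.2 and 29.7 CPM in replicates 1 to 3, in arousal early at 5.55, 10.3 and 13.6 CPM, and in summer euthermic at 14.5, 2.77 and 14.03 CPM. All 3 torpor late libraries were high, and the lowest of them was 2.004 times the highest of the other 6. The stage means were 32.3 ± 5.06 CPM in torpor late, 9.81 ± 4.04 CPM in arousal early and 10.4 ± 6.65 CPM in summer euthermic (SD, n = 3 each), so that the torpor late mean was 3.30 times that of arousal early and 3.09 times that of summer euthermic. Arousal early replicate 1 and summer euthermic replicate 2 were well below the rest of their stages.

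The second high gene was ENSMAUG00000020924. Its level was 9.10, 15.5 and 6.15 CPM in torpor late, 3.26, 6.10 and 4.67 CPM in arousal early, and 2.59, 3.16 and 6.09 CPM in summer euthermic. The stages were barely apart: torpor late replicate 3 and arousal early replicate 2 differed by less than the counting error of either. Torpor late replicate 2 was the highest library. Without it the torpor late mean was 1.63 times that of arousal early and 1.93 times that of summer euthermic. The means were 10.2 ± 4.77 CPM in torpor late, 4.68 ± 1.42 CPM in arousal early and 3.95 ± 1.88 CPM in summer euthermic (SD, n = 3 each), ratios of 2.19 and 2.59.

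The first low gene by the smaller fold was ENSMAUG00000000465. It was at 28.4, 17.0 and 14.7 CPM in torpor late, at 72.4, 258 and 49.1 CPM in arousal early, and at 155, 104 and 171 CPM in summer euthermic. No torpor late library came near the others, whose lowest was 1.73 times the highest torpor late value, but the arousal early animals differed widely among themselves. The means were 20.02 ± 7.33 CPM in torpor late, 126 ± 114 CPM in arousal early and 143 ± 35.1 CPM in summer euthermic (SD, n = 3 each). Torpor late was thus 6.31-fold below arousal early and 7.17-fold below summer euthermic. The first of these rested on 1 animal and was 3.04-fold without arousal early replicate 2.

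The second low gene, ENSMAUG00000004304, was among the more abundant members. It was at 75.7, 104 and 55.5 CPM in torpor late, at 154, 235 and 236 CPM in arousal early, and at 178, 186 and 288 CPM in summer euthermic. Both warm stages lay at similar levels, with means of 209 ± 47.5 CPM in arousal early and 217 ± 61.4 CPM in summer euthermic against 78.2 ± 24.1 CPM in torpor late (SD, n = 3 each). The torpor late mean was 2.66-fold below the first and 2.77-fold below the second.

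**Figure D2:**
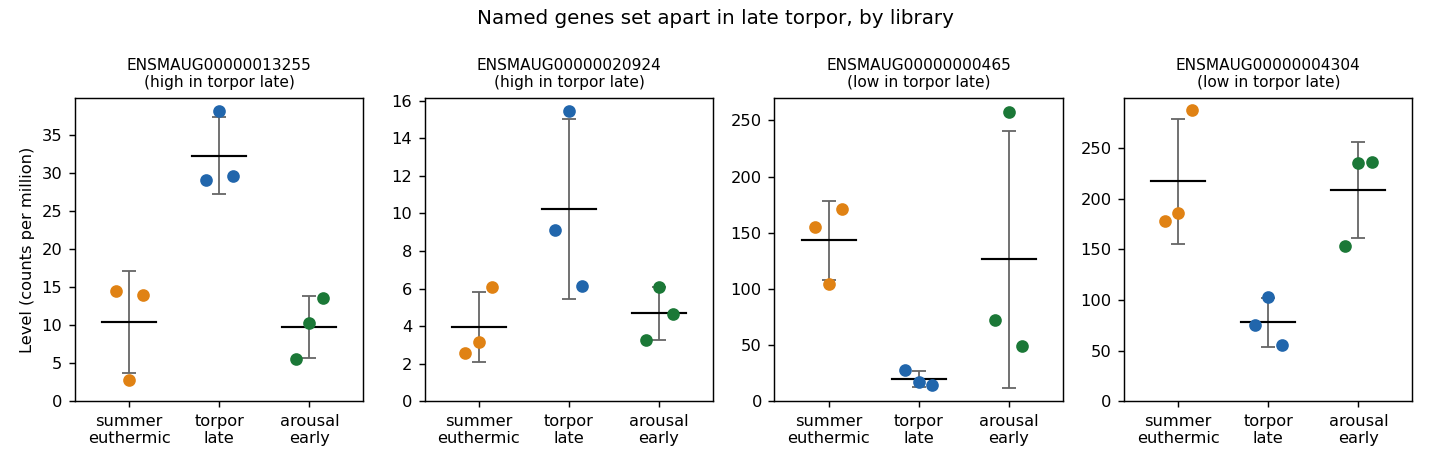
Level in CPM (linear axis from 0) of the 4 named genes in each library, with dots for replicates 1 to 3 from left to right, a black line for the stage mean and bars for 1 SD (n = 3). The torpor late dots lie outside the other 6 in every panel; for ENSMAUG00000020924 the lowest of them, at 6.15 CPM, is next to arousal early replicate 2 at 6.10 CPM, and for ENSMAUG00000000465 the arousal early dots run from 49.1 to 258 CPM.

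Most of the genes differed less than these. Among the 48 high genes the smaller of the 2 fold differences had a median of 1.52 and reached 3.09, and in 7 genes it was at least 2. Among the 37 low genes its median was 1.62 and its maximum 6.31 (in ENSMAUG00000000465, with 3.04 without arousal early replicate 2), and in 8 genes it was at least 2. Against arousal early the median difference was 1.52-fold for high and 1.77-fold for low genes, and against summer euthermic it was 1.78-fold and 2.03-fold. Arousal early was the stage nearer to torpor late for 37 of the 48 high and 27 of the 37 low genes.

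Many genes lay close to the limits of the rule. Of the genes with no overlap, 170 higher and 86 lower ones were under 1.4-fold and were left out, and together with the members these were 218 genes higher (1.97% of the 11077) and 123 genes lower (1.11%). The 3 high members nearest to the threshold had smaller folds of 1.403, 1.405 and 1.405, and the 3 genes just below it had 1.398, 1.391 and 1.387. For low genes the corresponding folds were 1.406, 1.407 and 1.429 inside and 1.396, 1.394 and 1.352 outside. Between 1.4-fold and 1.5-fold there were 22 high and 8 low members.

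**Figure D3:**
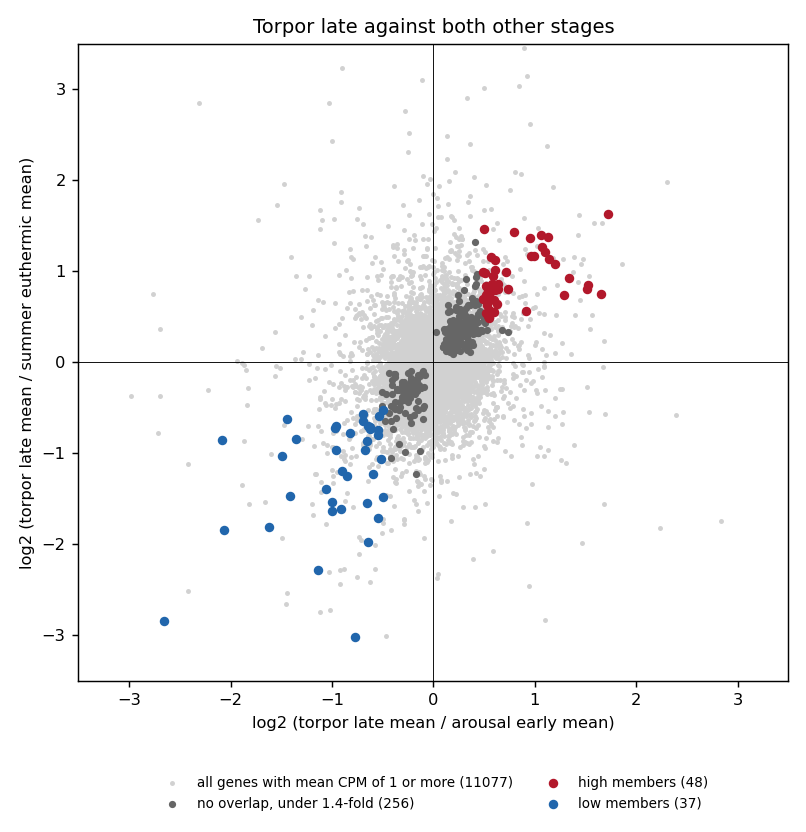
Ratio of the torpor late mean to the arousal early mean (x axis, log2) and to the summer euthermic mean (y axis, log2) for 11077 genes, of which 7 lie beyond the axes at 3.5. Red and blue dots are the 48 high and 37 low members, and dark grey dots are the 256 genes with no overlap that differed by less than 1.4-fold; the low members reach farther from the centre than the high ones.

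The high and low genes differed in abundance. High genes were mostly scarce: their mean over the 9 libraries had a median of 3.05 CPM, and 33 of 48 (68.8%) were under 5 CPM, where 23.0% of the 11077 genes were. Low genes had a median of 25.8 CPM, above the median of 15.8 CPM over all 11077 genes, and 5 of 37 (13.5%) were under 5 CPM. The 48 high genes ranked at a median percentile of 14.4 by abundance and the 37 low genes at 63.0. The rule set only the lower limit of 1 CPM, on the mean over all 9 libraries with torpor late included. Some high members passed this limit only through torpor late. For example, 1 of them had means of 1.68 CPM in torpor late, 0.733 CPM in arousal early and 0.796 CPM in summer euthermic. The difference in abundance between the 2 lists was not tested.

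The most abundant low gene held much of the summed level of its list. It was at 870, 814 and 693 CPM in torpor late, at 1195, 1652 and 1772 CPM in arousal early, and at 1337, 1261 and 1256 CPM in summer euthermic, so all 3 torpor late animals were low and the other stages overlapped. Its share of the summed CPM of the 37 genes was 38.0% to 54.3% over the libraries. The sum of all 37 genes was 1705 ± 140 CPM in torpor late, 3347 ± 259 CPM in arousal early and 3282 ± 113 CPM in summer euthermic (SD, n = 3 each).

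Among the high genes the most abundant was at 291, 271 and 225 CPM in torpor late. It was at 174, 198 and 179 CPM in arousal early and at 107, 194 and 137 CPM in summer euthermic, where replicate 2 was as high as the arousal early animals. The summed level of the 48 genes was 769 ± 27.8 CPM in torpor late, 483 ± 31.4 CPM in arousal early and 445 ± 52.1 CPM in summer euthermic (SD, n = 3 each). These sums rest on levels that chose the genes.

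The distance between the torpor late libraries and the nearest other library was small for most genes. Its median was 1.09-fold for high and 1.095-fold for low genes, and it was under 1.1-fold in 28 of 48 and 20 of 37. It reached 1.4-fold in 4 high and 3 low genes. Exact Poisson 95% intervals of these 2 libraries, which cover counting error only, did not overlap in 4 of the 48 high (8.33%) and 10 of the 37 low genes (27.0%). For the remaining genes the intervals overlapped, which does not by itself show that the 2 libraries could not be told apart. The lowest count of a member in any library was 12 among high and 13 among low genes.

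The library that came nearest to torpor late was most often an arousal early one. For high genes it was arousal early replicate 1, 2 or 3 in 6, 12 and 14 of the 48 genes, and summer euthermic replicate 1, 2 or 3 in 4, 4 and 8 genes. For low genes it was arousal early replicate 3 in 21 of the 37, with 2 and 7 genes for arousal early replicates 1 and 2 and 4, 1 and 2 genes for the summer euthermic replicates. The low genes were at a median of 2.27, 1.55 and 1.35 times their torpor late mean in arousal early replicates 1, 2 and 3, and at 2.15, 2.16 and 1.79 times it in summer euthermic. By CPM on column totals, arousal early replicate 3 thus stood closest to torpor late in the genes low in torpor late. Its library-size factor by TMM, the scaling of the edgeR fit below, was 0.937, the lowest of the 9 libraries. Its levels would be relatively higher with that scaling.

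**Figure D4:**
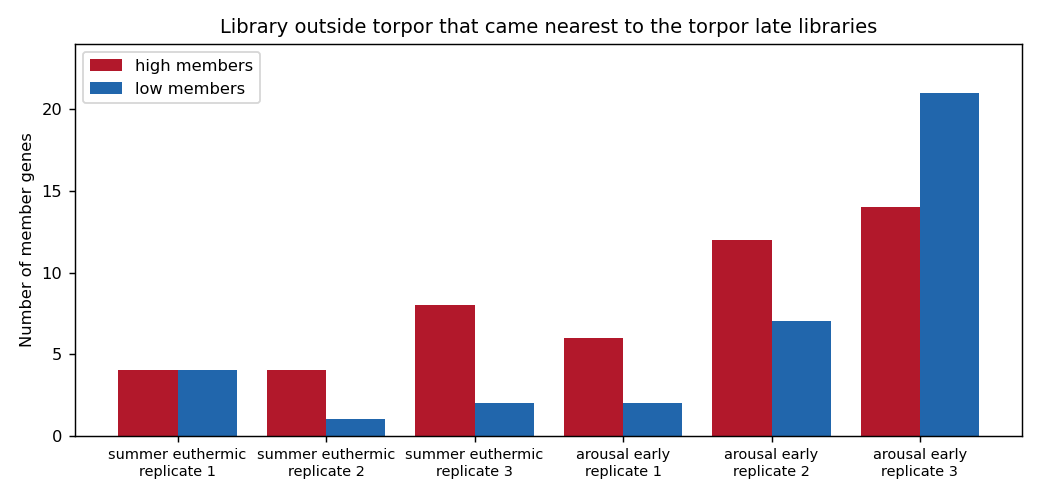
Number of member genes (y axis, from 0) for which each of the 6 libraries outside torpor late (x axis) had the level nearest to the torpor late libraries, for the 48 high genes (red) and the 37 low genes (blue). Arousal early replicate 3 has the tallest bars, with 14 high and 21 low genes.

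The spread between animals within a stage differed between the lists. Among low genes the coefficient of variation over 3 animals had a median of 16.7% in torpor late, 29.5% in arousal early and 26.8% in summer euthermic, where the medians over the 11077 genes were 13.9%, 12.5% and 11.3%. For these genes the medians in arousal early and summer euthermic were above the general ones, while the torpor late median was nearer to the general one. Among high genes the medians were 15.2%, 18.5% and 19.6%. The rule limits the spread in torpor late by asking for no overlap, and low abundance adds counting error to the spread of the high genes, so these values are a description.

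The libraries also divided across the stages in a way the labels do not name. Only genes that reached 10 CPM in at least 1 library were searched. In 10 of these, 2 sets of at least 2 libraries each were 10-fold or more apart. Of the 10, 6 set torpor late replicate 1, arousal early replicates 1 and 2 and summer euthermic replicate 2 apart from the other 5. When the division was added to the edgeR fit as a term (an alternative added once the values were known), 0 high and 4 low members were called between arousal early and summer euthermic, where 3.9% of all genes were. Without the covariate 1 and 5 were. The contrasts that the rule used are given with the covariate at the end.

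With all 9 libraries the same rule found 85 genes for torpor late (0.767% of the 11077), 125 for arousal early (1.13%) and 602 for summer euthermic (5.43%). These numbers depended on single libraries. Without 1 library they ran from 72 to 212 genes for torpor late, from 123 to 460 for arousal early and from 591 to 966 for summer euthermic. For torpor late the number was 212, 177 and 168 without torpor late replicates 1, 2 and 3, and 136 and 178 without arousal early replicates 2 and 3. For arousal early it was 460 without arousal early replicate 3 and 237 without torpor late replicate 1, and for summer euthermic 966 without summer euthermic replicate 2. Differences between the 3 stages in these numbers were not tested, and a gene could count for more than 1 stage.

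The comparison of arousal early with summer euthermic was not used to choose the genes, although its 6 libraries bound the lists. It asks whether the genes set apart in torpor late were at one level in both warm stages. By the quasi-likelihood test of edgeR, adjusted by Benjamini-Hochberg over 12780 genes, 1 of the 48 high genes and 5 of the 37 low genes had an adjusted p-value under 0.05, where 3.81% of all genes did (2.21% higher and 1.6% lower in arousal early). The lists hold 2.08% and 13.5% called genes, and with so few calls neither share was read as apart from the background. The libraries of the 2 stages did not overlap in 6 of 48 high genes (12.5%) and 7 of 37 low genes (18.9%), compared with 29.5% of the 11077 genes.

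The 5 called low genes did not move one way. In 2 of them arousal early was above summer euthermic, with log2 fold changes of 1.24 (SE 0.26) and 0.83 (SE 0.16) and adjusted p-values by edgeR of 0.0375 and 0.0299. The first of these was at 23.5, 18.4 and 17.3 CPM in torpor late. In arousal early it was at 99.5, 98.3 and 52.8 CPM and in summer euthermic at 26.6, 49.2 and 31.4 CPM. Each arousal early animal was above every other animal, and this gene also met the rule for arousal early. In the other 3, arousal early was below summer euthermic, with log2 fold changes of -2.24 (SE 0.31), -1.15 (SE 0.25) and -0.97 (SE 0.14) and edgeR adjusted p-values of 0.0119, 0.043 and 0.0119.

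The gene with the log2 fold change of -2.24 had the largest fall of any member against summer euthermic, 8.13-fold. It was at 5.32, 6.50 and 5.33 CPM in torpor late. In arousal early it was at 15.7, 6.54 and 6.97 CPM and in summer euthermic at 44.6, 59.8 and 35.1 CPM. Each summer euthermic animal was above every other animal, and this gene also met the rule for summer euthermic. Arousal early replicates 2 and 3 were next to the torpor late animals in this gene, and replicate 1 was higher, which gave an arousal early mean 1.70-fold above that of torpor late. The called high gene was scarce, at 1.49 ± 0.133 CPM in arousal early and 0.768 ± 0.142 CPM in summer euthermic (SD, n = 3 each), which differed by 0.98 on the log2 scale (SE 0.22, adjusted p = 0.0453 by edgeR). Its call was lost whenever any one library was left out, and the number of called low genes then lay between 0 and 5. It was 0 without arousal early replicate 2, 1 without summer euthermic replicate 3, and 3 without torpor late replicate 2, arousal early replicate 1, or summer euthermic replicate 1 or 2.

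Most members did not pass this test, and their intervals show what size of difference the data bear. Over the high genes the log2 fold change of arousal early against summer euthermic ran from -0.87 to 0.98 with a median of 0.20, and over the low genes from -2.24 to 1.24 with a median of -0.19, where the median of all 12780 genes was 0.00. The fitted change was above 0 in 37 of 48 high and 11 of 37 low genes, where it was above 0 in 49.6% of all 12780 genes. These counts largely restate which warm stage was nearer to torpor late. By mean level within the 4 libraries of the division described above, arousal early was above summer euthermic in 33 of 48 high and 17 of 37 low genes. Within the other 5 libraries it was above in 30 and 7. The 4 libraries hold only replicate 2 of summer euthermic, and the other 5 hold only replicate 3 of arousal early. Each of these counts thus rests on a single animal in a stage, and shares over all genes were not computed. The 95% interval lay within 1 log2 unit of 0 in 30 of the 48 high and 18 of the 37 low genes, against 72.2% of all genes. Half-widths had a median of 0.58 and 0.61 in the 2 lists. The intervals are not adjusted for the number of genes tested. To be called at an adjusted p-value under 0.05, a typical member therefore needed a difference larger than these half-widths.

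The 4 named genes were among those that did not pass. Their log2 fold changes were -0.08 (SE 0.54, 95% interval -1.29 to 1.14) for ENSMAUG00000013255 and 0.27 (SE 0.40, interval -0.64 to 1.17) for ENSMAUG00000020924. ENSMAUG00000000465 had -0.19 (SE 0.54, interval -1.40 to 1.02) and ENSMAUG00000004304 had -0.03 (SE 0.27, interval -0.64 to 0.58). The edgeR adjusted p-values were 0.95, 0.735, 0.871 and 0.958 in that order.

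**Figure D5:**
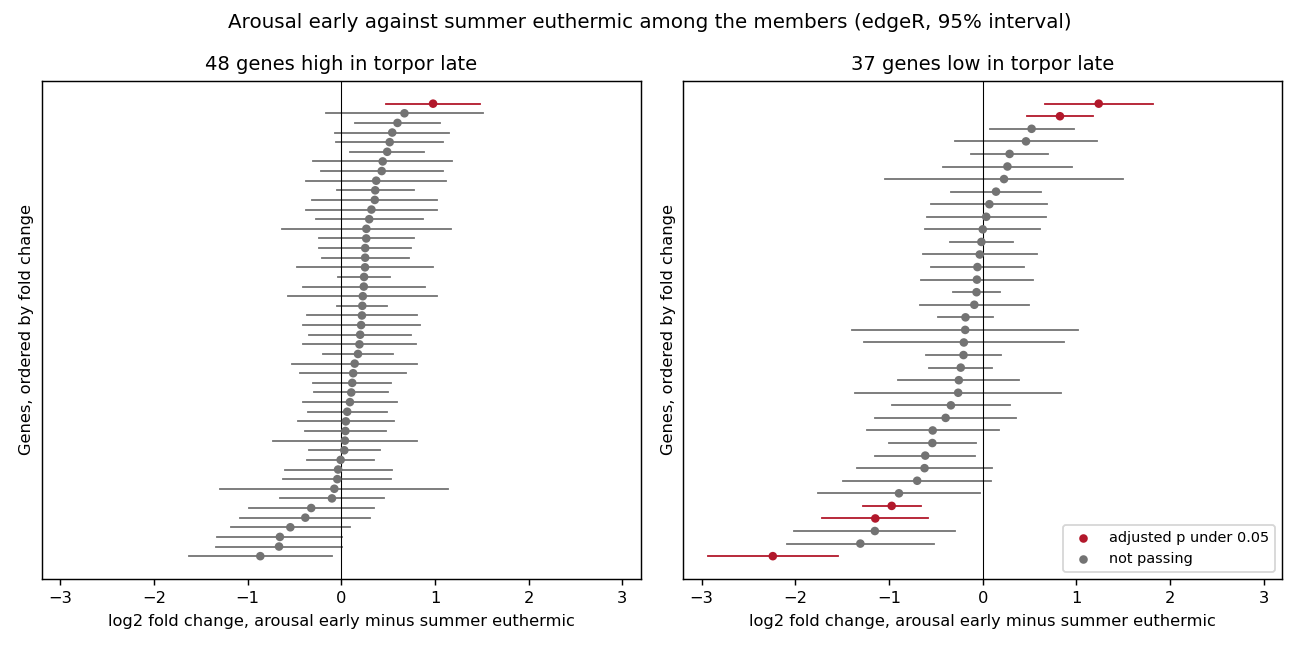
Log2 fold change of arousal early against summer euthermic (x axis) with its 95% interval from edgeR's quasi-likelihood fit, for the 48 high (left) and 37 low (right) genes ordered by fold change. Red marks the 1 high and 5 low genes with an adjusted p-value under 0.05; the called low genes lie on both sides of 0.

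For the contrasts that the rule used, the calls are given for orientation, and no reading is drawn from the members' counts, since the same differences chose them. Against summer euthermic, 5 of the 48 high genes were called higher in torpor late by edgeR, where 0.673% of all genes were, and 11 of the 37 low genes were called lower, where 0.696% were. These counts depended on the tool and on single libraries. DESeq2 called 28 high and 29 low members, where 3.83% of 13433 genes were called higher and 3.89% lower. With the division of the libraries as a covariate edgeR called 11 high and 21 low members, where 1.55% of all genes were called higher and 1.66% lower. Without 1 library the edgeR counts ran from 0 to 8 high and from 0 to 20 low members. They were 0 and 0 without torpor late replicate 2, 0 and 1 without torpor late replicate 1, 1 and 2 without torpor late replicate 3, and 8 and 20 without arousal early replicate 1. Without arousal early replicate 2 they were 1 and 6, and without summer euthermic replicates 1, 2 and 3 they were 0 and 3, 1 and 3, and 0 and 2.

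Between arousal early and torpor late edgeR called 0% of the 12780 genes and therefore 0 members. An unadjusted p-value under 0.05 was found for 956 genes (7.48%). The rule used this contrast too, so no reading is drawn from the members counted in it. DESeq2 called 79 of 13433 genes (0.588%) in that contrast, 0.447% higher and 0.141% lower in arousal early. Among them were 8 high members, called lower, and 11 low members, called higher. Other edgeR fits called few genes. Without a filter on counts there were 3 of 17090 genes (0.0176%), 2 of them low members. Without arousal early replicate 1 there was 1 of 12947 genes (0.00772%), which was no member, and without arousal early replicate 3 there were 2 of 12995 genes (0.0154%), both low members. With the division of the libraries as a covariate there was 1 of 12780 genes (0.00782%), a low member. No other edgeR fit made a call in this contrast, whether with RLE or upper-quartile scaling, at least 10 counts in every library, or any other single library left out, and neither did limma-voom.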

How the data were processed

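The authors deposited 1 table of raw read counts per Ensembl gene, with 1 column per animal. Per the labels' protocols, 437 ng of RNA per liver entered a stranded poly(A) library preparation, read from a single end to 75 bp. STAR 2.7.0f is named in the submitters' processing notes. The counting program, strand setting, genome build, annotation and filters are not given in the sources used here, so reads may be shared between overlapping genes or near-identical copies. Each column carries the number of 1 animal, which the labels tie to its stage. Replicate numbers follow accession order and are only names, and no label ties animals to litters or batches.

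Members were chosen by CPM on column totals (the rule opens the results). Members, lists and rule were chosen with earlier results of these data known. Counts were fitted in R 4.3.3 with edgeR 4.0.16 (filterByExpr, 12780 genes, all 85 members kept; TMM; glmQLFit with 1 coefficient per stage over 9 libraries; glmQLFTest; Benjamini-Hochberg). Each standard error is the absolute log2 fold change over the root of its F statistic. Alternatives used DESeq2 1.42.0, limma 3.58.1 (voom), other scalings, filters and stages, thresholds, and each library left out; the covariate for the division of the libraries, the fit without a filter for the contrasts with torpor late, the numbers per stage without 1 library and the folds of the named genes without 1 library were added after the data were seen. The code of the rule and of the fit was run on simulated counts with planted changes. For the rule, these counts held counting error only and larger changes than most members showed. These runs check the code and not the lists. Identifiers were named by the smaller fold among members of at least 5 CPM in their highest stage, at most 2 in each direction because 0 identifiers had a symbol; other members are described without identifiers, some chosen after their values were seen. For the same reason the 27 gene and marker lists and promoter motifs were not used. An exact test of 3 animals against 3 on 1 gene was not run.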

Additional observations from a re-analysis of the deposited data

How the results depend on the processing

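The size of the lists depended on the thresholds. A mean of at least 5 CPM left 15 high genes, a mean above 0.2 CPM gave 101, a 2-fold threshold left 7 high and 8 low genes, and no fold threshold gave 218 and 123. Both other scalings of library size kept the counts within 1.5 times. With TMM there were 46 high and 48 low genes, of which 42 and 36 were members. With DESeq2 size factors there were 45 high and 47 low genes, of which 41 and 36 were members. The low list thus grew from 37 genes, and the added genes were not members. Without 1 library, high genes ranged from 44 to 121 and low genes from 28 to 123, and the counts moved by over 1.5 times without torpor late replicate 1 (121 high, 91 low), torpor late replicate 2 (123 low), torpor late replicate 3 (114 high), arousal early replicate 2 (83 high) and arousal early replicate 3 (107 low).

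In arousal early against summer euthermic, the genes called numbered 1301 with DESeq2, 306 with only the 6 libraries of those stages and 20 at an adjusted p-value under 0.01, and 30 to 443 without 1 library. Of the high members, 0 were called at that threshold, with limma-voom, without a filter, with the 6 libraries, with the division of the libraries as a covariate, and without any 1 library (0 to 0), leaving the call in 4 alternatives. Of the low members, 0 were called at that threshold and 3 with the 6 libraries, and 0 to 5 without 1 library. In torpor late against summer euthermic edgeR called 175 genes, 0 to 313 without 1 library and 410 with the covariate, and DESeq2 called 1036. In arousal early against torpor late edgeR called 0 genes, 0 to 2 without 1 library, 3 without a filter and 1 with the covariate, and DESeq2 called 79. The causes were not tested.

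None of the 4 named genes was called between arousal early and summer euthermic in 17 alternatives, and the log2 fold changes of 3 of them changed sign. ENSMAUG00000013255 had 0.14 with limma-voom, 0.41 with the covariate, and 0.23, 0.27 and 0.17 without arousal early replicate 1 and summer euthermic replicates 1 and 3; over all omitted libraries it ran from -0.54 to 0.27. ENSMAUG00000004304 had 0.062 with the covariate and 0.17 and 0.22 without arousal early replicate 1 and summer euthermic replicate 3, with a range from -0.18 to 0.22. ENSMAUG00000000465 had 0.11 and 0.18 without arousal early replicates 1 and 3, with a range from -1.23 to 0.18. No paired analysis was possible because each library came from a different animal at 1 stage, and no label pairs animals between stages. For scarce high genes, counting error limits what can be told apart.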
